A study of Mus musculus with 4 samples.

Results

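The islet endothelial cell genes described here are 36 genes that mark or act on the cells lining blood vessels. They comprise surface, junction and secreted markers of endothelial cells, their transcription factors, the receptors and ligands of vessel growth, and the adhesion molecules that capture leukocytes from blood. They were chosen by name, and a gene was read from the probeset that the array's annotation pairs with that symbol alone, the brightest by its mean over the 4 arrays where there were several. All 36 had such a probeset, out of 22180 genes measured.

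RNA came from islets, clusters of endocrine cells isolated from the pancreas, of C57BL/6 mice aged 5 to 6 months. The comparison set 2 groups against each other on 2 Affymetrix Mouse Gene 2.0 ST arrays each: WT littermates, and mice carrying a transgene for GPR41 (Tg), a receptor for short-chain fatty acids whose mouse gene is Ffar3. Both groups were kept in RPMI medium after isolation, with no other treatment named in the labels. The promoter that drives the transgene, the number of founder lines and the number of mice behind each array are not given in the sources used here. P-values therefore measure the spread between these arrays only.

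Islets are among the most densely vascularised tissues of the body. Beta cells secrete VEGF-A, which binds the receptor VEGFR2 (Kdr) on endothelial cells and keeps the islet capillaries dense and fenestrated, while VEGFR1 (Flt1) binds the same ligand and acts largely as a decoy. Angiopoietins act through the receptor Tie2 (Tek), with angiopoietin 1 stabilising vessels and angiopoietin 2 opposing it, and cytokines induce the selectins, ICAM-1 and VCAM-1 that hold leukocytes to the vessel wall.

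The array medians lay between 6.43 and 6.47 on the log2 scale. Ffar3, the targeted gene, had log2 values of 7.09 and 6.47 in WT and of 11.02 and 10.98 in Tg. Beta cell markers were high in every sample, with Ins2 between 12.46 and 12.59 and Iapp between 13.19 and 13.35. The acinar list, of the enzyme-secreting cells around islets, had means of 10.33 and 11.29 in WT and of 10.94 and 10.68 in Tg, so exocrine RNA was in all 4 samples and differed most within WT.

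Most endothelial genes were higher in Tg islets, by modest amounts, and no single member passed the test over all genes. The difference, always Tg minus WT on the log2 scale, was above 0 for 31 of the 36 members, against 45.7% of all genes, and its median was 0.33, against -0.02 over all genes. Of the 36, 0 had an adjusted p under 0.05 (limma with Benjamini-Hochberg adjustment over 22180 genes), where 0.897% of all genes were called. At an unadjusted p under 0.05, 15 members were higher and 0 lower, beside 6.13% and 5.72% of all genes. Both Tg arrays lay above both WT arrays for 24 members and below them for 1, beside 18.6% and 23.7% of all genes. In such bulk samples, more endothelial cells and more RNA per endothelial cell cannot be told apart.

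The size of the pattern moved with single arrays. The count of 15 fell to 5 without WT replicate 2 and to 4 without Tg replicate 1, and it was 18 without either of the others. The median difference was 0.21 without Tg replicate 1 and between 0.24 and 0.44 without each other array. From 30 to 32 of the 36 members were above 0 in those fits, though not always the same ones: 8 members with small differences or uneven arrays changed side at least once. In an ordinary linear model without variance moderation none of those 15 kept an unadjusted p under 0.05. That model put 1 other member higher, Nos3, the endothelial nitric oxide synthase, and 1 lower, Vegfa. With so few arrays, exact permutation gives no two-sided p smaller than 0.333, so calls of single genes rest on limma's model.

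**Figure D1:**
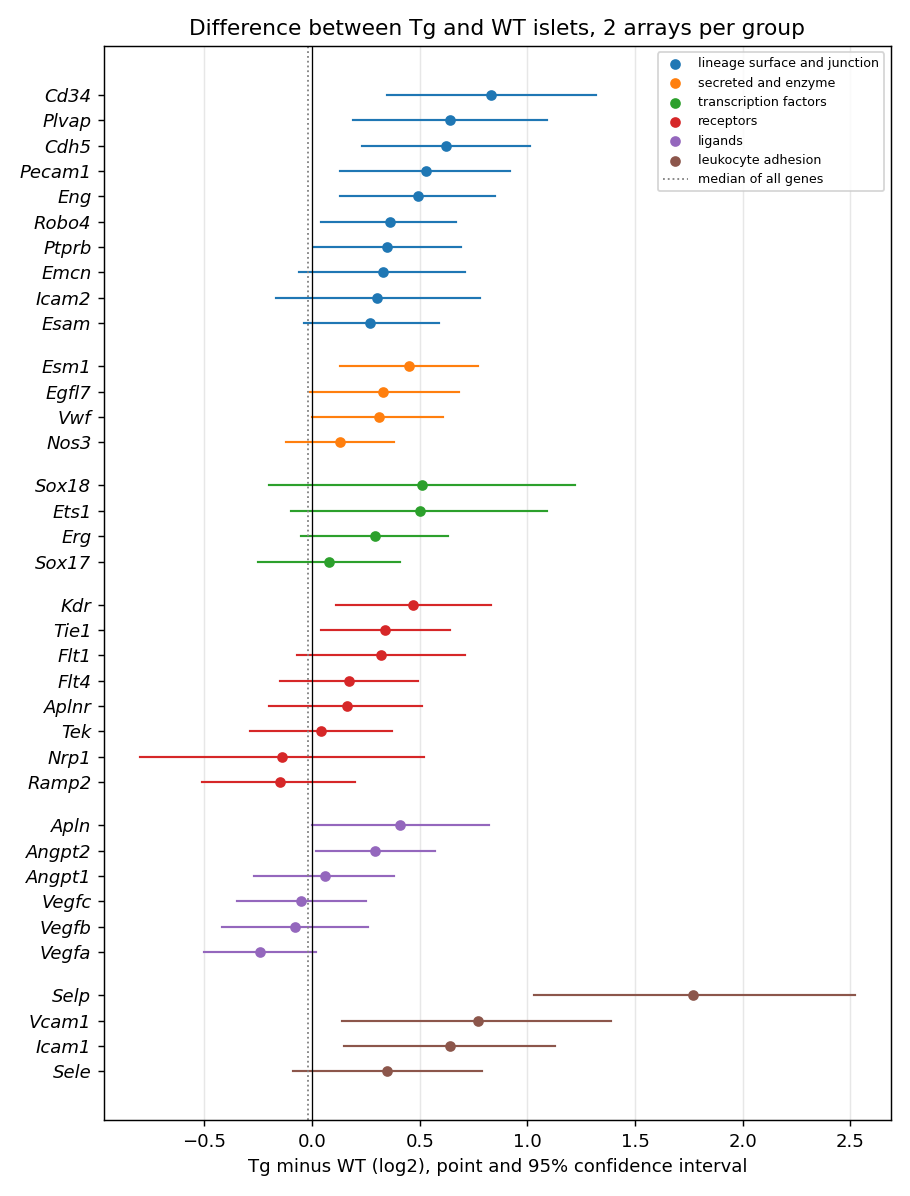
Difference between Tg and WT islets for the 36 genes (log2, x axis), grouped by role; points are limma estimates from 2 arrays per group, lines their 95% confidence intervals and the dotted line the median of all genes. The 21 lineage markers lie to the right of 0, Selp stands farthest right at 1.77, and Vegfa lies farthest left at -0.24.

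Surface and junction proteins of endothelial cells were all on the higher side in Tg. The 10 genes had a median difference of 0.42 and a range of 0.27 to 0.83. In 9 of them both Tg arrays lay above both WT arrays, beside 18.6% of all genes. Cd34, a sialomucin of endothelial and blood progenitor cells, had log2 values of 7.94 and 7.50 in WT and of 8.73 and 8.37 in Tg. The difference of 0.83 (SE 0.20, n = 2 per group) is 1.78-fold and had an adjusted p of 0.177. Each Tg array lay above each WT array, and replicate 1 was the higher array of each group. Another probeset, which names Cd34 together with a predicted gene, differed by 0.03 (SE 0.17). It was 1 of 5 further probesets that name a member, alone or with another gene, whose differences lay between -0.12 and 0.09 without passing the test.

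VE-cadherin and PECAM-1 are the adhesion proteins of endothelial junctions and the most used markers of the lineage. Cdh5, which encodes VE-cadherin, had 9.91 and 9.84 in WT and 10.70 and 10.29 in Tg, a difference of 0.62 (SE 0.16, adjusted p = 0.213). Pecam1 had 8.35 and 8.14 in WT and 8.95 and 8.59 in Tg, a difference of 0.53 (SE 0.16, adjusted p = 0.284). Neither gene's groups overlapped, and the folds were 1.53 and 1.44.

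Plvap encodes the protein of the diaphragms that span the fenestrae of islet capillaries. It had 7.65 and 7.51 in WT and 8.47 and 7.97 in Tg, a difference of 0.64 (SE 0.18, adjusted p = 0.259). Eng, which encodes the TGF-beta co-receptor endoglin, had 9.68 and 9.52 in WT and 10.26 and 9.93 in Tg, a difference of 0.49 (SE 0.15). Robo4, a guidance receptor that restrains vessel leak, had 7.13 and 6.94 in WT and 7.49 and 7.30 in Tg, a difference of 0.36 (SE 0.13). In all 3 genes the lower Tg array was still above the higher WT array. The phosphatase gene Ptprb (0.35), which acts on VE-cadherin and Tie2, the sialomucin gene Emcn (0.33) and the tight junction gene Esam (0.27) also had separate groups, while those of Icam2 (0.30) overlapped.

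The secreted and enzyme members were higher in Tg as well, from 0.13 to 0.45. All 4 had both Tg arrays above both WT arrays, beside 18.6% of all genes. Esm1, which encodes endocan, a proteoglycan of VEGF-activated endothelium, had 9.09 and 8.97 in WT and 9.61 and 9.36 in Tg, a difference of 0.45 (SE 0.13, adjusted p = 0.264). Egfl7, a matrix factor of growing vessels, had 8.50 and 8.18 in WT and 8.72 and 8.63 in Tg, a difference of 0.33 (SE 0.14). The clotting factor carrier Vwf, also made by megakaryocytes, differed by 0.31 (SE 0.12). Nos3 differed by 0.13 (SE 0.10), with arrays that stood close together in each group at 7.08 and 7.04 in WT and at 7.19 and 7.19 in Tg.

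All 4 transcription factors of the lineage were on the higher side. Only 1 of the 4, Erg, had both Tg arrays above both WT arrays, beside 18.6% of all genes. Sox18, which acts in vessel development, had 6.86 and 6.34 in WT and 7.49 and 6.74 in Tg, a difference of 0.51 (SE 0.29). Ets1, shared with lymphocytes, had 6.56 and 7.01 in WT and 7.57 and 6.98 in Tg, a difference of 0.50 (SE 0.24). Both had overlapping groups, and single arrays of either group moved each difference. Without Tg replicate 1 the differences were 0.14 for Sox18 and 0.20 for Ets1. Sox18 differed by 0.25 without WT replicate 2, and Ets1 by 0.27 without WT replicate 1. Erg, the ETS factor most restricted to endothelium, had separate groups (difference 0.29, SE 0.14), and Sox17, an arterial factor, differed by 0.08 (SE 0.13) with overlap.

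**Figure D2:**
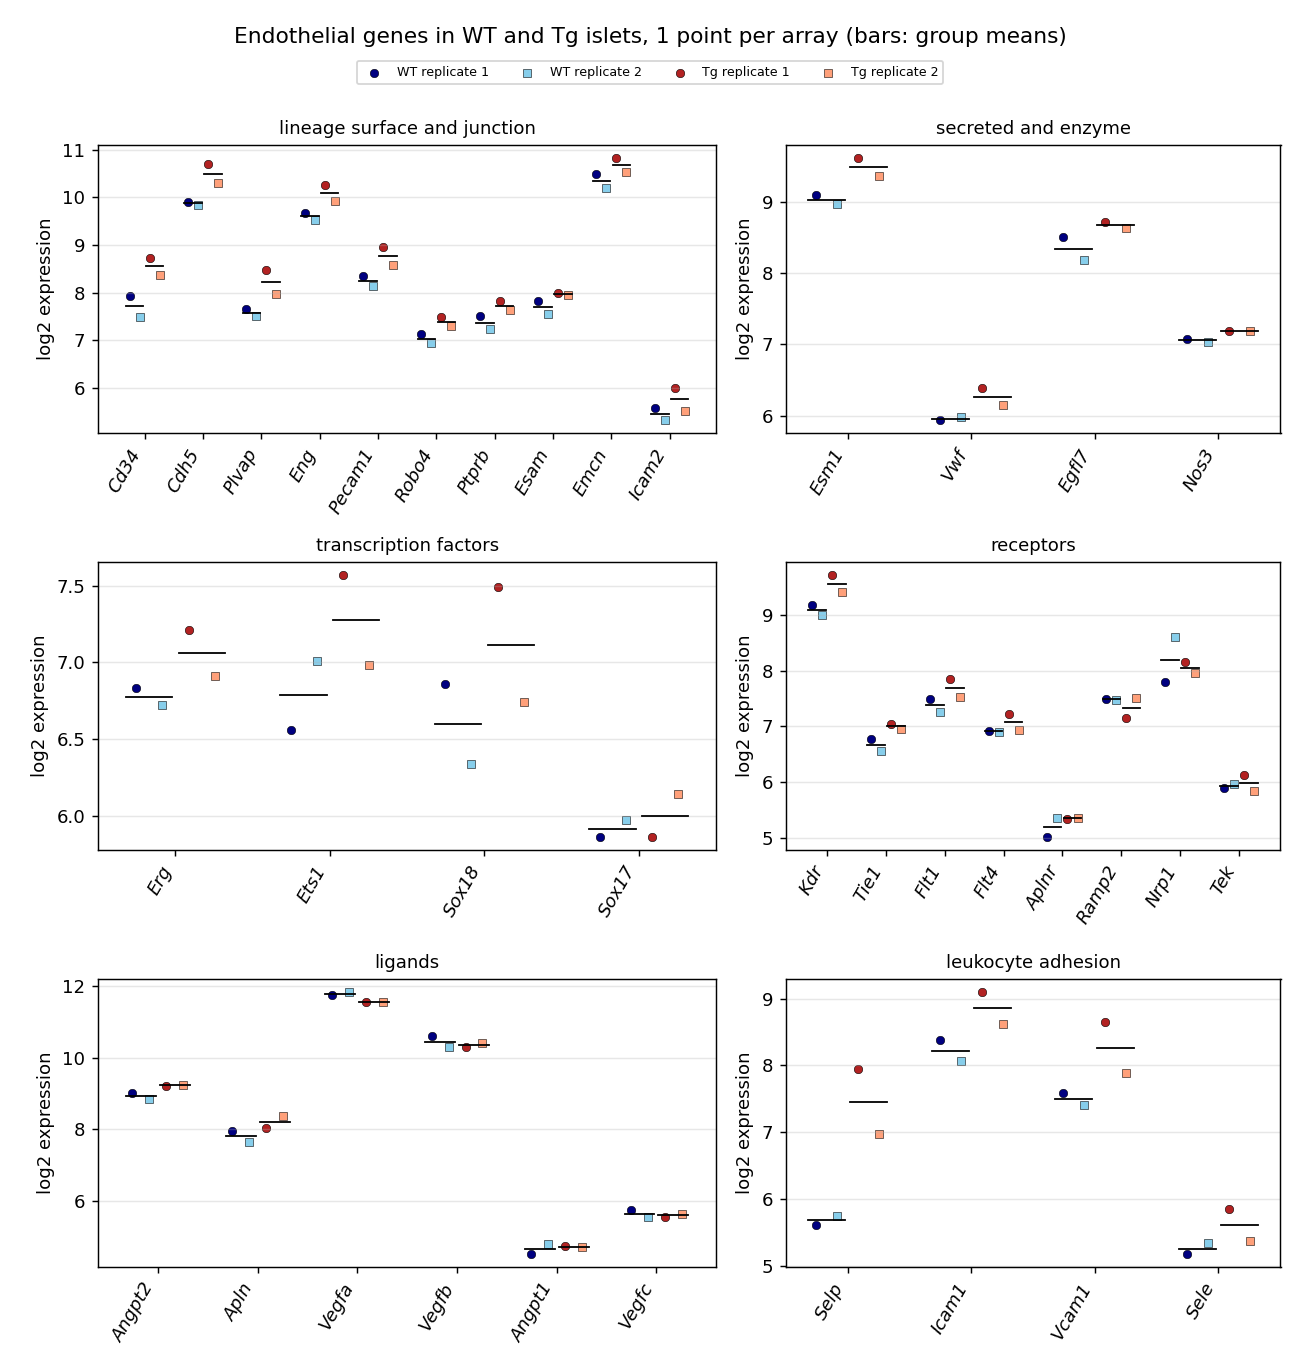
Log2 expression (y axis) of each of the 36 genes on each of the 4 arrays, in 6 panels by role; points are arrays, bars the means of 2 arrays, and heights are not comparable between genes. In the surface and junction panel replicate 1 lies above replicate 2 in both groups for all 10 genes, and only Icam2 overlaps between groups.

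Of the 8 receptors, 6 were higher and 2 lower in Tg. Both Tg arrays lay above both WT arrays for 4, beside 18.6% of all genes, and below them for 0, beside 23.7%. The 4 were Kdr, Flt1, the orphan receptor Tie1 and Flt4, and the groups of the others overlapped. Kdr, Tie1 and Flt1 had the largest differences. The confidence intervals of Flt1 (-0.07 to 0.71) and Flt4 (-0.15 to 0.49) overlapped widely, so these values do not set Flt1 apart from Flt4. Kdr had 9.19 and 9.00 in WT and 9.72 and 9.41 in Tg, a difference of 0.47 (SE 0.15, 1.38-fold, adjusted p = 0.297). Flt1 had 7.50 and 7.25 in WT and 7.86 and 7.53 in Tg, a difference of 0.32 (SE 0.16, adjusted p = 0.504). The Flt1 groups were separate by a narrow margin, with 7.50 against 7.53. Tie1, which modulates Tie2, had 6.77 and 6.55 in WT and 7.05 and 6.95 in Tg, a difference of 0.34 (SE 0.12).

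Tek itself, with 5.90 and 5.97 in WT and 6.12 and 5.83 in Tg, differed by 0.04 (SE 0.13), and its 95% confidence interval ran from -0.29 to 0.37. Flt4, the VEGF-C receptor of lymphatic and fenestrated vessels, differed by 0.17 (SE 0.13), and the apelin receptor gene Aplnr by 0.16 (SE 0.14). Nrp1, a VEGF co-receptor also made by other cells, had 7.79 and 8.60 in WT and 8.15 and 7.96 in Tg. Its difference of -0.14 (SE 0.27) had the interval -0.80 to 0.52, and both Tg arrays lay between the WT arrays. It was 0.27 without WT replicate 2 and -0.55 without WT replicate 1. Ramp2, a partner of the adrenomedullin receptor, had 7.50 and 7.47 in WT and 7.15 and 7.51 in Tg, a difference of -0.15 (SE 0.14) that was 0.02 without Tg replicate 1.

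The 6 ligands were divided, with 3 higher and 3 lower in Tg. Vegfa, the main endothelial growth factor that beta cells release, was the only member with both Tg arrays below both WT arrays. It had 11.74 and 11.83 in WT and 11.55 and 11.54 in Tg. The difference was -0.24 (SE 0.10, 95% confidence interval -0.50 to 0.02, adjusted p = 0.449), which is 1.18-fold higher in WT. It lay between -0.29 and -0.19 over 14 alternative settings and did not pass the test in any of them.

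Vegfb, which binds Flt1, had 10.59 and 10.29 in WT and 10.30 and 10.42 in Tg, and its difference of -0.08 (SE 0.14) came with overlapping groups. Vegfc, the ligand of Flt4, differed by -0.05 (SE 0.12). Angpt1 (0.06, SE 0.13) lay below the first quartile of all genes on every array, where differences are compressed. Angpt2, which endothelial cells release when activated, had 9.02 and 8.86 in WT and 9.21 and 9.25 in Tg, a difference of 0.29 (SE 0.11, adjusted p = 0.395) with separate groups. Apln, a peptide of endothelial tip cells, had 7.95 and 7.66 in WT and 8.05 and 8.38 in Tg, a difference of 0.41 (SE 0.17). For Apln the higher Tg array was replicate 2, unlike the surface and junction genes.

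**Figure D3:**
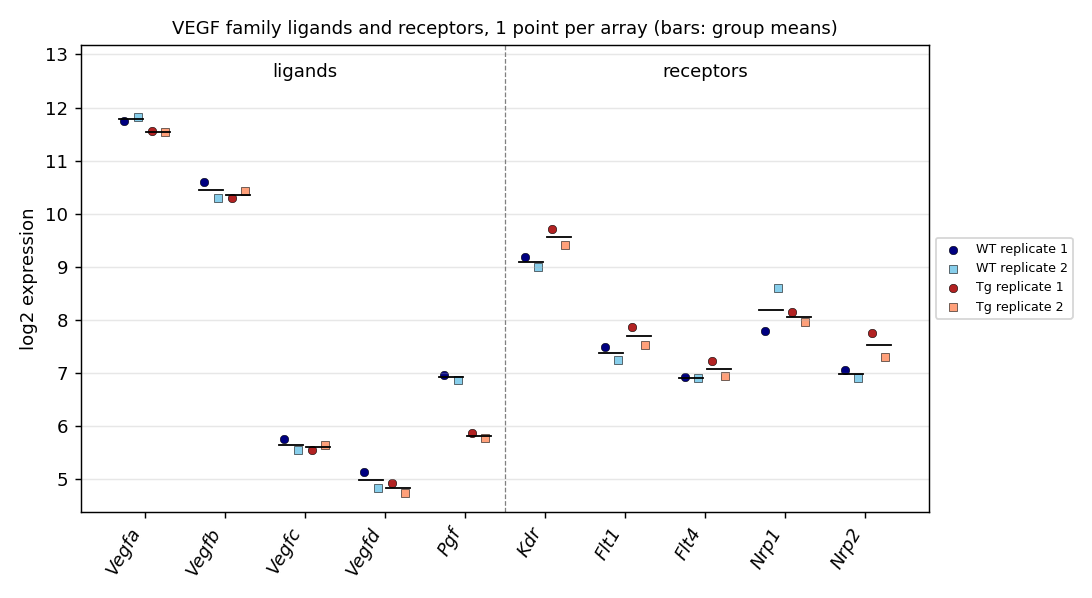
Log2 expression (y axis) of VEGF family ligands (left of the dashed line) and receptors (right) on the 4 arrays; points are arrays and bars means of 2. Vegfa and Pgf have both Tg points below both WT points, and Kdr, Flt1, Flt4 and Nrp2 have both above.

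The other genes of VEGF and angiopoietin signalling, 25 measured of 30 listed, had a median difference of -0.01, which lay between -0.08 and 0.06 in fits without 1 array. Of the 25, 0 were called higher, where 0.672% of all genes were, and 1 was called lower, where 0.225% were. The 1 was Pgf, which encodes placental growth factor, a ligand of Flt1 and the neuropilins. Pgf fell from 6.97 and 6.88 in WT to 5.87 and 5.77 in Tg, a difference of -1.11 (SE 0.11, adjusted p = 0.0208). The arrays of each group stood close together. In fits without 1 array the difference stayed between -1.16 and -1.06, at adjusted p-values of 0.0605 to 0.131.

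Dab2, an endocytic adaptor, differed by 0.65 (SE 0.12, adjusted p = 0.101). The co-receptor gene Nrp2 differed by 0.55 (SE 0.17) and the kinase gene Akt1 by 0.33 (SE 0.10), neither past the test. Calcrl, the adrenomedullin receptor that Ramp2 accompanies and a gene outside the naming rule, differed by 0.74 (SE 0.25, adjusted p = 0.343) while Ramp2 did not share that direction.

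The 4 adhesion molecules that bind leukocytes had the highest median difference of the 6 roles, again without a call over all genes, and Selp had the largest difference of the 36 members. All 4 had both Tg arrays above both WT arrays, beside 18.6% of all genes. Their median difference of 0.70 was 0.39 without Tg replicate 1. Selp encodes P-selectin, which endothelial cells and platelets store and display to make leukocytes roll. It had 5.62 and 5.75 in WT and 7.94 and 6.98 in Tg, a difference of 1.77 (SE 0.30, 95% confidence interval 1.03 to 2.52). This is 3.42-fold, at an adjusted p of 0.0808. Even the lower Tg array stood more than a log2 unit above WT, and the Tg arrays were nearly as far apart from each other. Without Tg replicate 2 the difference was 2.25 and passed the test (adjusted p = 0.0222), with a lone Tg array assumed to vary like the others, and without Tg replicate 1 it was 1.30. Over 14 alternatives the adjusted p ranged from 0.0222 to 0.589.

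Vcam1, the ligand of the leukocyte integrin VLA-4, had 7.59 and 7.41 in WT and 8.65 and 7.88 in Tg, a difference of 0.77 (SE 0.25, adjusted p = 0.330). Icam1, the ligand of the beta 2 integrins, had 8.38 and 8.06 in WT and 9.10 and 8.62 in Tg, a difference of 0.64 (SE 0.20, adjusted p = 0.292). Sele, which encodes E-selectin, made by activated endothelium, differed by 0.35 (SE 0.18). In all 4 genes Tg replicate 1 was the highest of the 4 arrays.

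Marker lists of other cells are given beside these values, since Cd34, Pecam1, Icam1, Icam2, Ets1 and Selp are also transcribed in blood cells. The leukocyte list had 14 of 14 measured genes higher in Tg with a median difference of 0.92. Of these, 1 was called, where 0.672% of all genes were called higher. It was the actin-binding protein gene Coro1a (0.94, SE 0.10, adjusted p = 0.0309). Its adjusted p ran from 0.0801 to 0.167 in fits without 1 array. The lysosomal gene Cd68 (0.75, SE 0.11), the adaptor gene Tyrobp (1.10, SE 0.17) and the Fc receptor gene Fcgr1 (0.73, SE 0.12) had the next smallest p-values and did not pass. The means of that list were 6.89 and 6.68 in WT and 7.92 and 7.51 in Tg. The endothelial list of 21 lineage markers had means of 7.69 and 7.51 in WT and of 8.12 and 7.85 in Tg, so both lists ranked the arrays alike. The pan-leukocyte gene Ptprc, named after its values were seen, had 6.53 and 6.35 in WT and 8.60 and 7.44 in Tg, with replicate 1 high in each group like Selp and Vcam1 in Tg. The part of leukocyte RNA in the differences of the shared genes was not tested.

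The platelet list had 6 of 6 measured genes higher in Tg, with 0 called, where 0.897% of all genes were. The list's median of 0.24 was 0.41 without Tg replicate 1, 0.38 without WT replicate 1 and 0.13 without WT replicate 2. Its largest difference was that of Ppbp, a platelet chemokine precursor, with 5.51 and 6.03 in WT and 6.28 and 7.47 in Tg (1.11, SE 0.40, adjusted p = 0.366). Pf4, another platelet chemokine, had 6.15 and 6.67 in WT and 6.88 and 7.21 in Tg (0.64, SE 0.21). Both had separate groups, while those of the platelet glycoprotein genes Gp9 (0.30, SE 0.16) and Gp5 (0.17, SE 0.12) overlapped. The integrin gene Itga2b, a defining platelet gene with the largest p-value of the list, had 5.86 and 5.94 in WT and 5.91 and 5.89 in Tg (0.00, SE 0.10). The part of platelet RNA in the difference of Selp was not tested. The median difference of the lineage list was 0.34 with and without Cd34, Icam2, Pecam1 and Vwf, a choice made after seeing the data that removes 4 of 21 genes and does not test the part of blood cells.

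The duct list had 2 of 6 measured genes higher and 4 lower in Tg. Its median of -0.02 ran from -0.61 to 0.41 in fits without 1 array. The duct genes Muc1 (-0.67, SE 0.66) and Sox9 (-0.53, SE 0.57) were on the lower side. Of the 6, 1 was called, where 0.672% of all genes were called higher. It was the chloride channel gene Cftr, which rose from 5.13 and 5.83 in WT to 7.80 and 7.75 in Tg (2.30, SE 0.23, adjusted p = 0.0211). In fits without 1 array its adjusted p ran from 0.00580 to 0.137. None of the 9 acinar and 11 beta cell genes was called, where 0.897% of all genes were. The acinar list had 6 higher and 3 lower in Tg, and its median of 0.04 ran from -0.50 to 0.55 without 1 array. Its smallest p-value was that of the transcription factor gene Bhlha15 (0.24, SE 0.11). The beta cell list had 5 higher and 6 lower, with a median of -0.05. Ucn3 (-0.60, SE 0.14) and Slc30a8 (-0.33, SE 0.13), the genes of urocortin 3 and a zinc transporter, had the smallest p-values there.

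**Figure D4:**
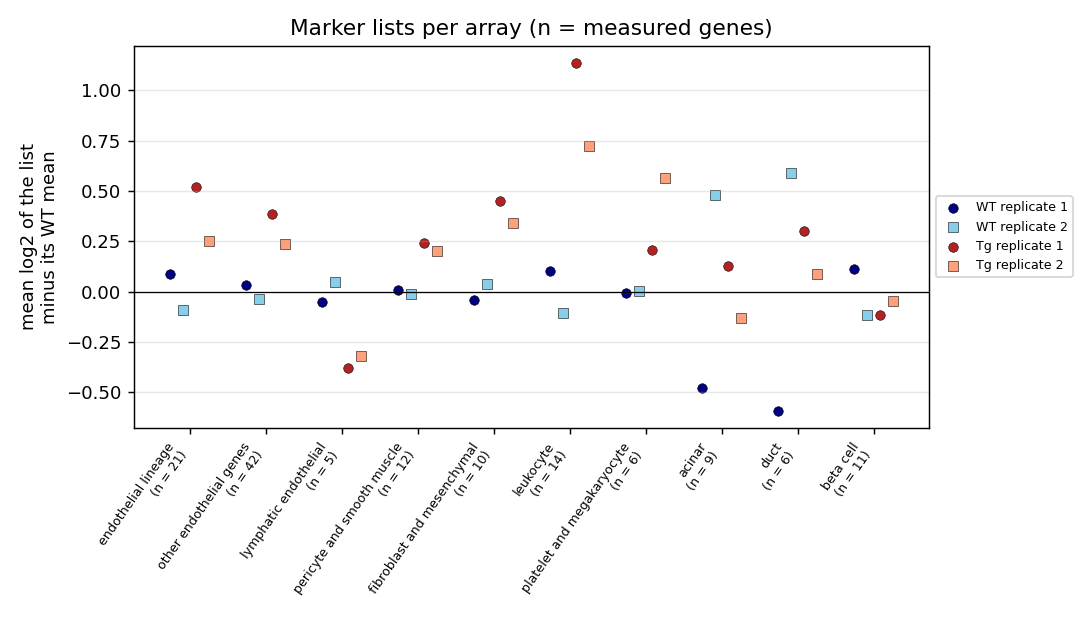
Mean log2 expression of each marker list on each array minus the list's WT mean (y axis), with the number of measured genes in brackets; points are arrays. The endothelial, other endothelial, leukocyte, platelet, pericyte and fibroblast lists have both Tg points above both WT points, the lymphatic list has both below, and the acinar and duct lists differ most between the WT arrays.

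Most of a further 42 endothelial genes outside the 36 were on the same side. They were read on the same arrays and chosen with earlier results of these data known. They are therefore no independent test of the pattern. Of the 42, 36 were higher in Tg, beside 45.7% of all genes, with a median of 0.23. Both Tg arrays lay above both WT arrays for 27 and below them for 0, beside 18.6% and 23.7% of all genes. Among the 42, 0 were called, where 0.897% of all genes were. At an unadjusted p under 0.05, 17 were higher and 0 lower, beside 6.13% and 5.72% of all genes. Adgrf5, an adhesion receptor of endothelium, had 8.00 and 7.61 in WT and 9.30 and 8.86 in Tg, a difference of 1.27 (SE 0.20, adjusted p = 0.0658). The sphingosine 1-phosphate receptor gene S1pr1 (0.81, SE 0.17), the thrombomodulin gene Thbd (0.63, SE 0.13) and the lipid-binding protein gene Fabp4 (1.07, SE 0.22) had the next smallest p-values. None passed the test. Fabp4 is also an adipocyte gene and S1pr1 a lymphocyte gene.

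Of 5 measured genes known from lymphatic vessels, 3 were lower in Tg. Reln, which encodes the matrix protein reelin, fell from 6.64 and 6.53 in WT to 5.52 and 5.42 in Tg, a difference of -1.12 (SE 0.11, adjusted p = 0.0209). It was the 1 that was called, where 0.225% of all genes were called lower. In fits without 1 array its adjusted p ran from 0.0580 to 0.131. Lyve1, the hyaluronan receptor of lymphatic endothelium that some macrophages share, had 9.22 and 9.37 in WT and 8.50 and 8.60 in Tg. Its difference of -0.75 (SE 0.11) missed the threshold (adjusted p = 0.0607). Prox1, the lymphatic identity factor that endocrine islet cells also express, had 9.31 and 8.91 in WT and 8.70 and 8.45 in Tg (-0.54, SE 0.17).

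Pdpn (0.45, SE 0.37), the podoplanin gene, had overlapping groups, and Flt4 was slightly higher in Tg, so the 5 genes did not share 1 direction. The list's median was -0.54, and -0.34 without WT replicate 1.

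Cells that wrap vessels were measured by 12 pericyte and smooth muscle genes. Of these, 11 were higher in Tg with a median of 0.22 and 0 were called, where 0.897% of all genes were. Pdgfrb, the receptor by which endothelial cells recruit pericytes, had 7.80 and 7.80 in WT and 8.15 and 8.20 in Tg, a difference of 0.38 (SE 0.10, adjusted p = 0.232). The potassium channel genes Kcnj8 (0.42, SE 0.12) and Abcc9 (0.40, SE 0.12) and the desmin gene Des (0.42, SE 0.17) followed. Of the 10 fibroblast genes, 9 were higher, with a median of 0.11 that was 0.22 without WT replicate 2 and 0.17 without Tg replicate 2. The collagen-binding proteoglycan gene Dcn (1.79, SE 0.26, adjusted p = 0.0538) led this list, followed by the matrix gene Fn1 (0.92, SE 0.17), Thy1 (0.44, SE 0.15) and Pdgfra (0.46, SE 0.21). None of the 10 was called, where 0.897% of all genes were.

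Genes of oxygen sensing and of vessel patterning showed no common side. HIF factors control Vegfa transcription. Of 19 genes of oxygen sensing and HIF targets other than Vegfa, 8 were higher and 11 lower in Tg. Of the 19, 0 were called, where 0.897% of all genes were. Their median was -0.06, and 0.04 without WT replicate 2. The hydroxylase gene Egln3 (0.84, SE 0.19), the haem oxygenase gene Hmox1 (0.44, SE 0.12), Ndrg1 (-0.33, SE 0.11) and Arnt (-0.24, SE 0.11), a partner of HIF-1 alpha, had the smallest p-values. Of 16 Notch and ephrin genes, which pattern arteries and tip cells, 10 were higher and 6 lower. Of the 16, 0 were called, beside the same 0.897% of all genes. Their median of 0.08 was -0.04 without WT replicate 1 and 0.17 without Tg replicate 2. Lfng (0.50, SE 0.11), a modifier of Notch, Jag2 (-0.53, SE 0.16), a Notch ligand, Notch2 (0.48, SE 0.24) and Notch4 (0.20, SE 0.11), the endothelial Notch receptor, led that list.

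Of 19 cytokine, receptor and NF-kB pathway genes, only some of which induce Icam1, Vcam1 and Sele, 12 were higher in Tg. Among the 19, 1 was called, where 0.672% of all genes were called higher. The 1 was Il1b, which rose from 4.78 and 4.84 in WT to 5.81 and 5.70 in Tg (0.94, SE 0.11, adjusted p = 0.0326). Its adjusted p ran from 0.0851 to 0.203 in fits without 1 array. Il1a (0.87, SE 0.15) and Tnf (0.56, SE 0.12) were on the same side without passing, and the receptor gene Il1r1 was on the other (-0.71, SE 0.13, adjusted p = 0.0908). The list's median of 0.37 was 0.05 without Tg replicate 1 and 0.06 without WT replicate 1.

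The start regions of the members are shown because many vessel genes are driven by ETS factors such as Erg and Ets1, which bind the core letters GGAA. RefSeq start regions (GRCm38.p6) were at hand for 20 of the 36 genes, in 25 windows of 250 bases before a start. The searched letters were GGAAG for ETS, ACAAT for SOX and AGATAA for GATA factors, on both strands, with none of these contained in another. The ETS letters were in 19 of the 25 windows (76%), against 64.1% of all 32851 windows. The SOX letters were in 5 (20%), against 27.7%, and the GATA letters in 2 (8%), against 9.99%. Selp, Cd34, Eng, Kdr and Tie1, members that were higher in Tg, and Vegfa, the ligand on the other side, are printed 5′ to 3′ towards the start, with the ETS letters on either strand in capitals; they were chosen after their values were seen.
Selp, chr1:164115014-164115263, plus strand: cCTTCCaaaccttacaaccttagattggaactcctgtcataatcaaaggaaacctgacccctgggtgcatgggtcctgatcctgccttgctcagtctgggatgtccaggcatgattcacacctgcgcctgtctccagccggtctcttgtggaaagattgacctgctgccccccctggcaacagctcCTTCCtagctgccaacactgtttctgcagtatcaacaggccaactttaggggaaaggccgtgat
Cd34, chr1:194938571-194938820, plus strand: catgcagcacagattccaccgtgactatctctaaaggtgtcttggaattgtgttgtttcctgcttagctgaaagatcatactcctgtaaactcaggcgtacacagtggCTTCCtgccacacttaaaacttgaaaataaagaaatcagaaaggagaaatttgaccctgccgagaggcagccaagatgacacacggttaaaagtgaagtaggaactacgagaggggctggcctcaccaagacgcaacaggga
Eng, chr2:32646345-32646594, plus strand: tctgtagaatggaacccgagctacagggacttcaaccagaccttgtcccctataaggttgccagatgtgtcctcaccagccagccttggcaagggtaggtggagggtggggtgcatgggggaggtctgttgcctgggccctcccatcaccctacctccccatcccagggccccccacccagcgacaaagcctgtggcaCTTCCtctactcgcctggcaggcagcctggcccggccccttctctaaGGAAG
Kdr, chr5:75978456-75978705, minus strand: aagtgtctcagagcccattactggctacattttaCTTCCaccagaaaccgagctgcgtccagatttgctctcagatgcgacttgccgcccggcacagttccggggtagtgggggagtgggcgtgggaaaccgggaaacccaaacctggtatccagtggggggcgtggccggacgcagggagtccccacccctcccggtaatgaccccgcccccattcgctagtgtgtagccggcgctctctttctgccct
Tie1, chr4:118489850-118490099, minus strand: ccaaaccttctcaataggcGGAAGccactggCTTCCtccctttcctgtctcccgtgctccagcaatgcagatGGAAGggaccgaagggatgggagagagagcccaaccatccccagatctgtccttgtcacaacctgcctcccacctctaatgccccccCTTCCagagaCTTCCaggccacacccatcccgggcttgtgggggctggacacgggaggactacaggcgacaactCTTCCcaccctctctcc
Vegfa, chr17:46032378-46032627, minus strand: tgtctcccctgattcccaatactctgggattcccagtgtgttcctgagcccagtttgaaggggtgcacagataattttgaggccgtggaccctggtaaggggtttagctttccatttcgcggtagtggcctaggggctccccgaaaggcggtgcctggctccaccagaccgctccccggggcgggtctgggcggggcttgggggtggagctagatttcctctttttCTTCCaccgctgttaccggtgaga
Tie1 held 6 matches, Eng and Selp 2 each and Cd34, Kdr and Vegfa 1 each. The nearest match lay 1 base before the start in Eng, 13 in Tie1, 20 in Vegfa, 60 in Selp, 138 in Cd34 and 212 in Kdr. RefSeq gave Vegfa 2 start regions with 1 match each; the one not printed had its match 6 bases before the start. Esm1, which differed by 0.45, held 0 matches, as did Tek, which differed by 0.04. A match is a description of letters and not a bound site.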

How the data were processed

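From each sample 250 ng of total RNA was labelled, per the labels' protocols. The authors deposited log2 values made with Partek and RMA, per the submitters' processing notes; RMA corrects background, normalises arrays by quantiles and summarises probes. Versions and the genome build are not given in the sources used here. All 4 columns were used. Of 27037 probesets, 23521 paired with 1 symbol, 1814 with several and 1702 with none; only the first kind was used, brightest probeset per gene and no filter on dim genes. Array number and signal over background limit the precision.

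limma 3.58.1 (R 4.3.3; lmFit, then eBayes) was run on all 22180 genes, with 2 residual and 3.76 prior degrees of freedom and Benjamini-Hochberg adjustment over the whole table. The steps were tested on simulated data. The members and lists were chosen with earlier results of these data known. Every member is named. Array values follow for the 12 smallest p-values, the 2 largest differences of each role in each direction and fixed markers. Up to 4 genes per list were to be named by smallest p. Some lists name other genes as well or instead, chosen after their values were seen. Older symbols were matched through a GRCm38 table used for names only. Alternatives changed the probeset rule, the genes tested, a level filter, the scaling, the variance prior, a replicate block and each array left out.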

Additional observations from a re-analysis of the deposited data

How the results depend on the processing

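The number of members past the adjusted threshold was 0 in 13 of 14 alternatives and 1 (Selp) without Tg replicate 2. The count of 15 members higher at an unadjusted p under 0.05 was 4 to 18 with each array left out, 1 (Nos3, not among the 15) without variance moderation and 12 to 17 in the other settings. Among fits on all 4 arrays, Vegfa was lower at that threshold with the level filter, median centring, either variance trend and no variance moderation. The median difference of 0.33 was 0.21 to 0.44 in fits without 1 array, and that of the lineage markers, 0.34, from 0.24 to 0.47. Both were within 0.02 of their value under both scalings, which turned no sign. With the replicate block the counts were 0 and 17. The labels number the arrays as biological replicates and do not say whether equal numbers were paired. Over all genes, replicate differences correlated at -0.0631 between the groups. Of the 36 members, 22 had a replicate difference of the same sign in both groups. The share over all genes was not counted, so this count does not set the members apart. All 7 list genes called over all genes lost the call with that block, at adjusted p-values of 0.0557 (Itga4), 0.117 (Pgf, Reln and Cftr), 0.126 (Selplg), 0.143 (Coro1a) and 0.149 (Il1b), and without variance moderation, at 0.472 to 0.530. Of the 36 members, 8 turned sign at least once, each when 1 array was left out: Tek, Sox17, Vegfb, Vegfc, Angpt1, Nrp1, Ramp2 and Aplnr. The cause was not tested. Dim genes such as Angpt1 lie where differences are compressed.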

Other observations

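Lists outside the members, chosen after the data were seen, added values on what vessels touch. Of 13 measured genes listed for leukocyte partners of the adhesion molecules, 7 were higher and 6 lower in Tg, with a median of 0.13. Not all of the 13 encode a binding partner. Among them 2 were called, both higher, where 0.672% of all genes were called higher. Itga4, the integrin chain that binds VCAM-1, rose from 5.59 and 5.27 in WT to 7.43 and 7.13 in Tg (1.85, SE 0.16, adjusted p = 0.0162). Selplg, which encodes the P-selectin ligand, rose from 6.45 and 6.22 in WT to 7.56 and 7.65 in Tg (1.27, SE 0.12, adjusted p = 0.0208), while its dimmer second probeset differed by 0.24 (SE 0.17, adjusted p = 0.685 over all probesets). With each array left out, the adjusted p lay between 0.0292 and 0.0965 for Itga4 and between 0.0343 and 0.131 for Selplg. The integrin genes Itgb2 (0.67, SE 0.15) and Itgal (0.49, SE 0.14), whose products bind ICAM-1, did not pass. Cd44 (-0.28, SE 0.19), St3gal4 (-0.24, SE 0.10) and Golm1 (-0.23, SE 0.11) had the largest differences on the lower side, without passing. St3gal4 and Golm1 do not themselves encode such partners.

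Of 13 vessel basement membrane genes, 11 were higher and 0 were called, where 0.897% of all genes were. At an unadjusted p under 0.05, 1 was higher, beside 6.13% of all genes: Sparc, a collagen-binding protein (0.53, SE 0.16). Of the type IV collagen genes, Col4a2 differed by 0.32 (SE 0.13) with separate groups and Col4a1 by 0.06 (SE 0.11) with overlap, as did the laminin gene Lama4 (0.02, SE 0.11). Of 18 other growth factors that act on vessels, 0 were called, where 0.897% of all genes were. At an unadjusted p under 0.05, 5 were lower and 1 higher, beside 5.72% and 6.13% of all genes. The lower ones were Igf2 (-0.54), Hgf (-0.38), Pdgfa (-0.32), Fgf1 (-0.33) and Tgfb2 (-0.49), and the higher one was Bmp4 (0.37). Of 13 inhibitors of vessel growth, 9 were higher and 0 were called, where 0.897% of all genes were. Timp3 (0.50, SE 0.12), an inhibitor of metalloproteases that blocks VEGF binding to Kdr, led that list.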
